A study of Saccharomyces cerevisiae with 73 samples.

Results

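The mitochondrial protein import machinery of budding yeast was followed through 13 changes of growth medium, as the transcripts of 34 nuclear genes chosen by name. Of these, 30 had a probe on the arrays, among 5538 genes measured, and TOM5, TIM8, TIM9 and TIM10 had none. The 30 comprised 10 genes of the outer membrane (TOM and SAM complexes), 3 of the intermembrane space, 8 of the inner membrane (TIM23 and TIM22 complexes and OXA1), 7 of the matrix motor and 2 of the matrix processing peptidase. Strain KCN118 (S288C ade2, called wild type in the labels) was grown in complete dextrose medium with all amino acids and inositol, filtered, washed and resuspended in a new medium, and sampled after 15, 30, 60, 120 and 240 min.

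There were 4 ethanol media (SEtOH, SEtOH+ino, SEtOH+aa and SEtOH+aa+ino) and 4 galactose media (Sgal, Sgal+ino, Sgal+aa and Sgal+aa+ino), where aa stands for all amino acids and ino for inositol. There were 4 dextrose media short of amino acids. SD and SD+ino had none, SD+aa:LIVWHM+ino and SD+aa:ARNCQGKPSDEFTY+ino had those whose 1-letter codes stand in their names, and inositol. For SD+aa:LIVWHM+ino the design text does not list D, E and Y among the amino acids left out, so whether it held them is not settled. The last medium, SD+aa, was dextrose with all amino acids but no inositol. Every comparison was made against the cells before the shift (t = 0), which carried the same ade2 allele and had dextrose, amino acids and inositol. Each medium was 1 culture, so a p-value does not measure the spread between repeat cultures of a medium. It measures the spread between media that is left after the terms of a fit, pooled over all classes of media. Any deviation of the t = 0 cells that all ratios share is not part of the SE or p-value of a change against t = 0.

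Almost all mitochondrial proteins are made in the cytosol and imported. The TOM complex recognises them and carries them across the outer membrane, from where the SAM complex inserts barrel proteins, the MIA pathway folds small cysteine-rich proteins in the intermembrane space, and the TIM23 and TIM22 complexes serve the inner membrane. A motor built around the chaperone Ssc1 draws precursors into the matrix, where a peptidase removes their targeting sequence. In yeast, dextrose represses respiration and ethanol requires it, and galactose represses it less than dextrose does.

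The values were ratios of shifted over t = 0 cells on 73 two-colour arrays, given here as log2 (1 is a doubling). A value is a transcript's share of the labelled RNA, so a change of total RNA per cell cannot be told apart from a change of the other transcripts. The base and the direction of the deposited logarithms were not stated. They were read as base 10 with shifted cells on top, and if the base was 2, each log2 value below would have to be divided by 3.32, while the p-values would not change. Had t = 0 cells been on top, every sign and every higher or lower below would turn round. Genes induced by galactose bear on the direction: over the 4 galactose cultures the late log2 ratio lay between 1.4 and 2.16 for GAL1 and between 1.65 and 2.97 for GAL7, but between -0.45 and 0.11 for GAL10. In the 4 ethanol cultures, where dextrose was also gone, these genes lay between 0.99 and 1.32, between 2.4 and 3.03, and between -0.56 and -0.34. The standard deviation over probes ranged over arrays between 0.190 and 1.59. Repeat arrays gave a median absolute difference over the members of between 0.0003 and 0.192. The 2 repeats with the note ojgrid had almost the same values as their partners (0.0003 and 0.0048) and added no information. Of 1950 combinations of member, culture and time 7 had no value, and 1 array value lay at the 100-fold limit of the table.

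**Figure D1:**
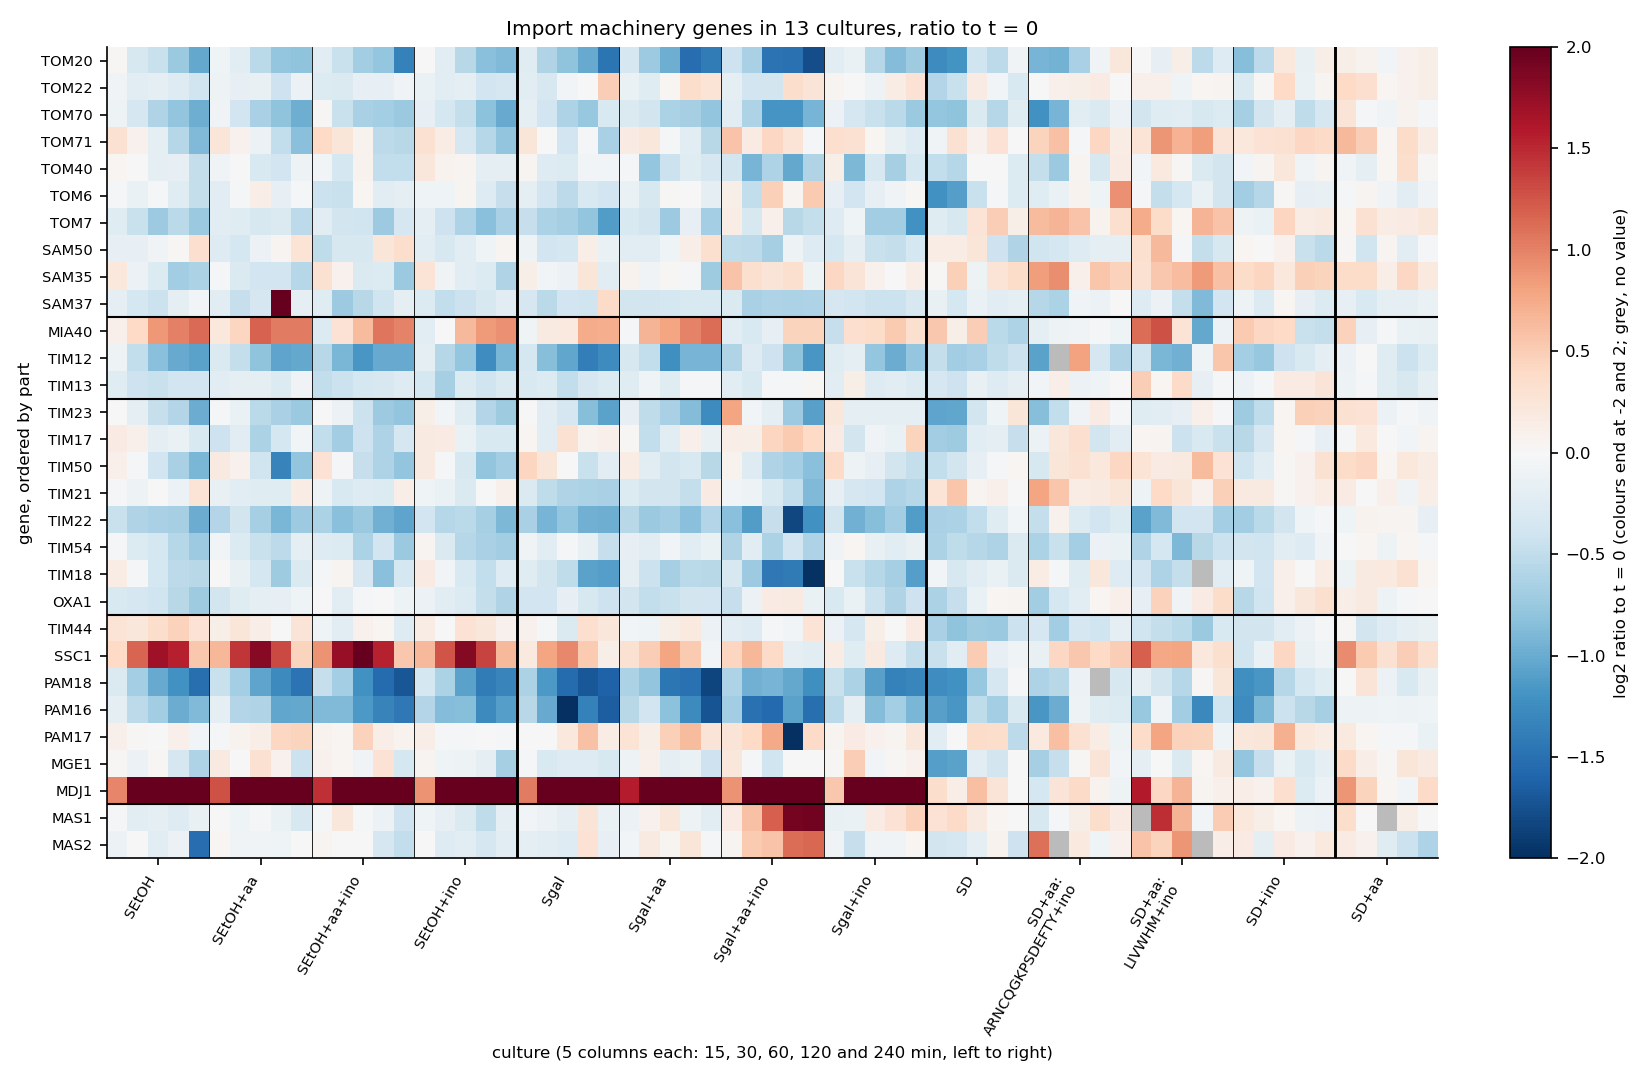
Log2 ratio to t = 0 of the 30 members (down the page, ordered by place in the pathway) in each culture and time (across, 15 to 240 min within a culture). Colours end at 2 in either direction. MDJ1 stands out as high in ethanol and galactose, with PAM16, PAM18, TIM12, TIM22 and TOM20 low.

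The import machinery mostly did not rise on ethanol or galactose. At 120 and 240 min (the mean of both times is called late below), 19 of 30 members were lower than at t = 0 in ethanol and 3 were higher. Over all genes tested, 42.9% were lower and 33.8% higher, and 63.3% of members were lower. When each array was centred on its median, 4 members were higher and 13 lower, a share of 43.3% against 38.2% of all genes, and by quantile normalization 3 were higher and 13 lower against 35% of all genes. In galactose 14 members were lower, a share of 46.7% that was close to the 44.7% of all genes. There 3 were higher, against 34.7% of all genes. After centring 6 were higher and 12 lower in galactose, with 38.1% and 41.2% of all genes. The member medians were -0.32 in ethanol and -0.30 in galactose, beside -0.12 and -0.15 over all genes. Centring moved those all-gene medians to -0.01 and -0.05, so that the shared shift is about 0.1. Called means an adjusted p below 0.05 (limma, Benjamini-Hochberg over all genes).

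The 3 membrane and matrix groups were not equal. Late in ethanol 7 of 8 inner membrane members, 7 of 10 outer membrane members and 3 of 7 motor members fell, while 2 motor members rose. Late in galactose the lower counts were 7 of 8, 4 of 10 and 2 of 7. Over all genes 42.9% were lower in ethanol and 44.7% in galactose. Only the inner membrane in both media and the outer membrane in ethanol stood above that share. After centring the lower counts were 5, 5 and 2 in ethanol and 5, 4 and 2 in galactose. The all-gene shares were then 38.2% and 41.2%. At 120 min the median of the inner membrane members over the 4 ethanol cultures was -0.57 (lowest -0.62, highest -0.53), with -0.39 for the outer membrane and 0.10 for the motor. In galactose the inner membrane median was -0.51 (-0.59 to -0.42), with -0.26 for the outer membrane and 0.10 for the motor. The inner membrane median lay below that of the motor in 4 of 4 ethanol and 4 of 4 galactose cultures at each of the 5 times. It lay below that of the outer membrane in 4 of 4 of both at 120 min, and in 3 of 4 ethanol and 4 of 4 galactose cultures at 240 min. At 15, 30 and 60 min it did so in 1, 0 and 4 of the 4 ethanol cultures. In galactose those counts were 1, 2 and 1 of 4. The motor's median near 0 was a middle between members that moved in opposite directions, with MDJ1, which serves folding in the matrix, counted among them.

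**Figure D2:**
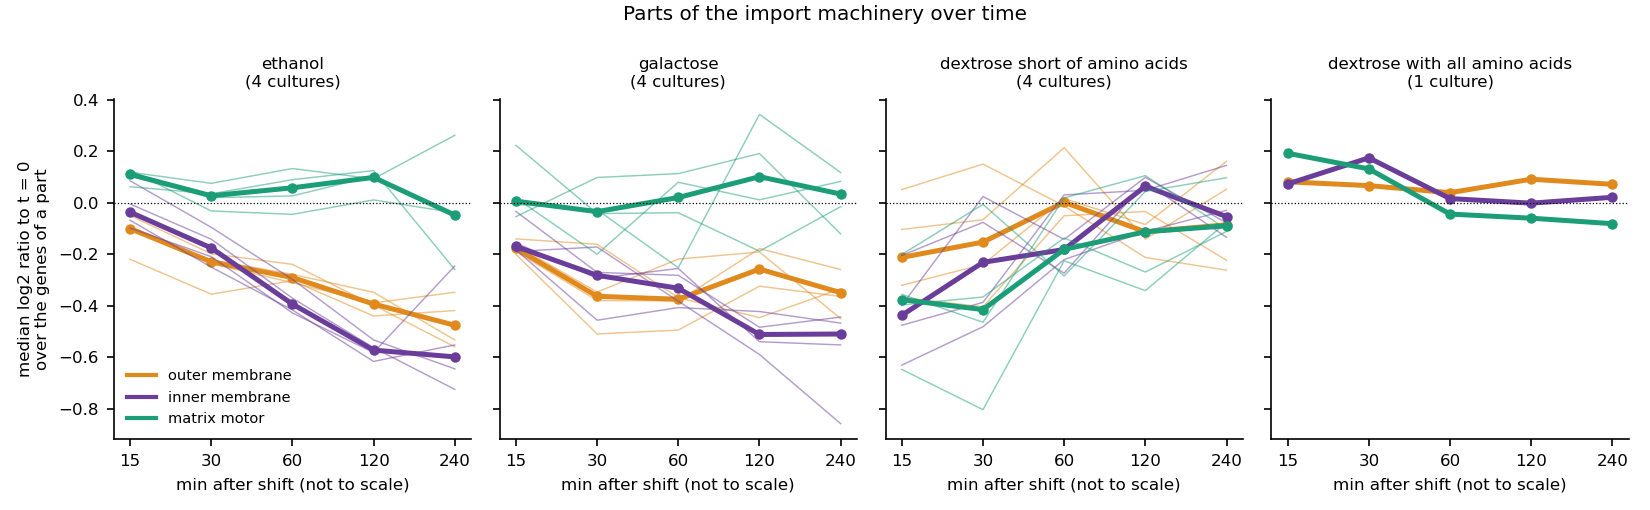
Median log2 ratio to t = 0 of the members of the outer membrane, inner membrane and matrix motor (vertical axis) against minutes after the shift, in panels by class of medium. Thin lines are single cultures and thick lines their median. In ethanol and galactose the inner membrane line sank over time, and in dextrose short of amino acids all 3 groups dipped at 15 and 30 min.

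The receptors of the outer membrane split. TOM20, the receptor for precursors with a presequence, had late log2 ratios of -0.88, -0.86, -0.79 and -1.06 in ethanol (in the order of media given above) and of -1.23, -0.79, -1.46 and -1.64 in galactose. Every ethanol and galactose culture lay below every dextrose culture, where the values were -0.30, -0.02, -0.39 and 0.07 with amino acids short and 0.11 in SD+aa. The change against t = 0 was -0.90 ± 0.13 in ethanol (SE, adjusted p = 2.3e-05) and -1.28 ± 0.13 in galactose (adjusted p = 8.6e-07). It built up over time, with a mean of -0.07 ± 0.11 (SD, n = 4) at 15 min of ethanol and of -1.02 ± 0.24 at 240 min. TOM22, which links the receptors to the pore, kept a smaller distance from 0. It had -0.33, -0.36, -0.26 and -0.11 in ethanol and 0.24, 0.22, 0.31 and 0.31 in galactose, all ethanol cultures below and all galactose cultures above 0. The changes were -0.27 in ethanol, a call that ended after centring and by quantile normalization, and 0.27 ± 0.08 in galactose (adjusted p = 0.0071), a call that ended by quantile normalization. TOM20 lay below TOM22 in 4 of 4 cultures of both classes.

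TOM70 and its close relative TOM71 are the receptors for carriers and other precursors without a presequence. TOM70 had -0.88, -0.91, -0.89 and -0.71 late in ethanol and -0.53, -0.64, -0.72 and -1.06 in galactose, all below dextrose with amino acids short (-0.41, -0.42, -0.30 and -0.21). Its change against t = 0 was -0.85 ± 0.09 (adjusted p = 2.4e-06) in ethanol and -0.74 ± 0.09 (adjusted p = 8.1e-06) in galactose. TOM71 followed another course: it stood above 0 in every ethanol culture at 15 min (mean 0.31 ± 0.07, SD, n = 4), and late it had -0.73, -0.68, -0.67 and -0.54 in ethanol, against 0.14, 0.40, 0.55 and 0.29 in dextrose with amino acids short. The late change in ethanol was -0.65 ± 0.10 (adjusted p = 4.5e-05). Late in galactose it had -0.34, -0.21, -0.39 and 0.12 and was not called. TOM70 lay below TOM71 in 4 of 4 late cultures of ethanol, galactose and dextrose short of amino acids alike. Both probes could take up some transcript of the other gene, since the 2 genes are similar in sequence, and this was not tested.

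**Figure D3:**
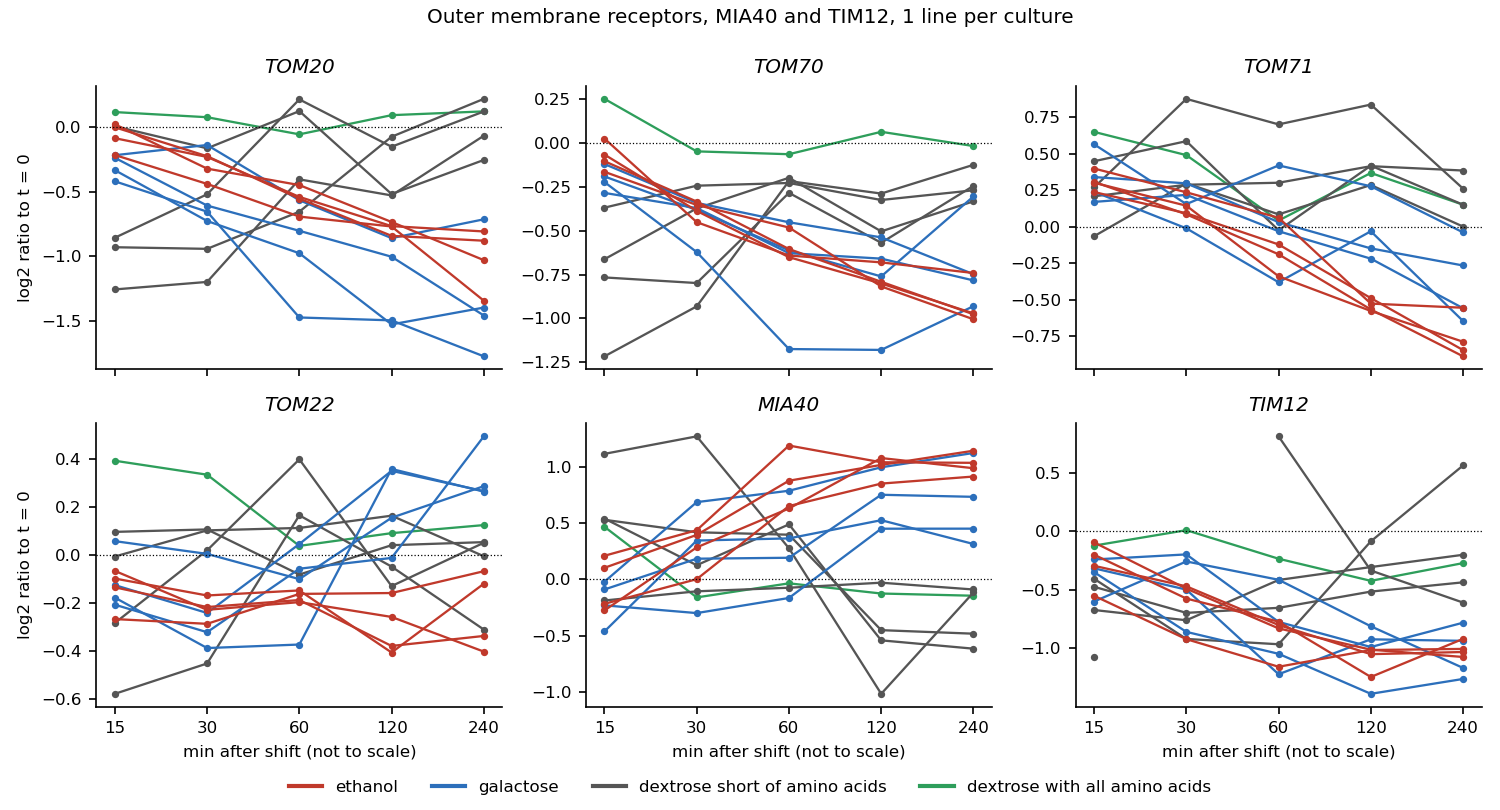
Log2 ratio to t = 0 of the outer membrane receptors TOM20, TOM22, TOM70 and TOM71, and of MIA40 and TIM12 of the intermembrane space (vertical axis, scaled per panel) against minutes after the shift, 1 line per culture, in panels by gene with colours by class of medium. TOM20 and TOM70 sank in ethanol and galactose, and TOM22 stayed within a narrower range. MIA40 was above and TIM12 below 0 in every late ethanol and galactose culture.

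The pore and the small TOM proteins differed in their late changes. TOM40, the pore itself, had -0.32, -0.18, -0.24 and -0.49 late in ethanol and -0.06, -0.51, -0.29 and -0.81 in galactose, overlapping dextrose with amino acids short (-0.14, -0.01, -0.33 and -0.08). Its change was -0.31 in ethanol and -0.42 in galactose (adjusted p = 0.0041), and the ethanol call ended without SEtOH or SEtOH+aa+ino (nearest to 0 at -0.25), and after centring. TOM7, a small subunit that loosens the complex, had -0.64, -0.74, -0.41 and -0.54 in ethanol and -0.95, -0.95, -0.42 and -0.51 in galactose. All lay below the dextrose cultures, and its changes against t = 0 were -0.58 in ethanol and -0.71 in galactose. In dextrose it was 0.30, 0.17, 0.63, 0.19 and 0.20. TOM6, a small subunit that stabilises the complex, was not called late in either medium (-0.26 in ethanol, -0.04 in galactose).

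The SAM complex showed no common direction. SAM35, a subunit that recognises the barrel precursors' signal, had -0.66, -0.44, -0.48 and -0.51 late in ethanol, against 0.32, 0.46, 0.72 and 0.50 in dextrose with amino acids short, with no overlap, and a change of -0.52 against t = 0. In galactose it had 0.01, 0.07, -0.37 and 0.11 and was not called against t = 0. SAM50, the barrel protein of the complex, had 0.18, -0.01, 0.16 and 0.30 in ethanol and was not called against t = 0 in either late window. Against late dextrose it was called higher in ethanol (0.53), but not in galactose. From early to late it rose in ethanol by 0.45, a call lost without SEtOH+aa or SEtOH+aa+ino. SAM37 was not called late, and its 1.01 in SEtOH+aa came from 1 of 2 repeat arrays at 120 min, which read 4.93 while the other read -0.52.

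In the intermembrane space MIA40 and TIM12 moved in opposite directions. MIA40, the receptor and oxidase that traps cysteine-rich proteins, had 1.08, 0.88, 1.04 and 1.03 late in ethanol and 0.74, 0.42, 1.06 and 0.45 in galactose, all above the dextrose cultures (-0.58, -0.47, -0.57 and -0.06 with amino acids short, -0.14 in SD+aa). The change against t = 0 was 1.01 ± 0.12 (adjusted p = 3.9e-06) in ethanol and 0.67 ± 0.12 (adjusted p = 0.00015) in galactose. TIM12, a small TIM protein bound to the TIM22 complex, had -1.04, -1.08, -1.04 and -1.01 in ethanol and -1.32, -0.88, -0.93 and -0.99 in galactose. Those were below every dextrose value (-0.48 to 0.24 with amino acids short, -0.35 in SD+aa), with changes against t = 0 of -1.04 ± 0.12 (adjusted p = 2.7e-06) and -1.03 ± 0.12 (adjusted p = 2.8e-06). TIM13, the partner of TIM8 in the chaperone complex, was lower in ethanol (-0.30), a call that ended after centring.

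In the presequence translocase of the inner membrane, TIM23 and TIM17, the 2 related channel subunits, parted. TIM23 had -0.79, -0.64, -0.69 and -0.76 late in ethanol and -0.96, -0.19, -1.06 and -0.91 in galactose, against 0.08, 0.47, 0.03 and 0.07 in dextrose with amino acids short, so the classes did not overlap. The changes against t = 0 were -0.72 ± 0.13 (adjusted p = 0.00019) in ethanol and -0.78 ± 0.13 (adjusted p = 9.1e-05) in galactose. TIM17 had -0.22, -0.31, -0.20 and -0.47 in ethanol and 0.09, 0.16, -0.03 and 0.46 in galactose, where it was not called. Its ethanol change of -0.30 lost its call without SEtOH+aa+ino (-0.24), and after centring. TIM23 lay below TIM17 in 4 of 4 cultures of both classes, and above it in 4 of 4 late cultures of dextrose short of amino acids.

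TIM50, the receptor of that translocase, had -0.78, -0.74, -1.06 and -0.70 in ethanol and -0.34, -0.42, -0.43 and -0.76 in galactose, against -0.00, 0.20, 0.46 and 0.31 in dextrose with amino acids short. The lowest, in SEtOH+aa, holds a pair of repeat arrays at 120 min that read -2.01 and -0.67. It fell by 0.82 ± 0.10 in ethanol (adjusted p = 7.7e-06) and by 0.49 ± 0.10 in galactose (adjusted p = 0.00068). TIM21, which couples the translocase to the TOM complex and the respiratory chain, was near 0 late in ethanol (0.08, 0.05, -0.05 and -0.07) and lower in galactose (-0.64, -0.59, -0.16 and -0.69; change -0.52 ± 0.10, adjusted p = 0.00022).

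The 3 members of the carrier translocase were lower in both media. TIM22, its channel, had -0.83, -0.78, -0.82 and -1.01 late in ethanol and -0.97, -0.91, -0.70 and -1.51 in galactose, all below dextrose with amino acids short (-0.15, -0.06, -0.53 and -0.33). It fell by 0.86 ± 0.12 in ethanol (adjusted p = 2.3e-05) and by 1.02 ± 0.12 in galactose (adjusted p = 4.3e-06). TIM18 and TIM54, its other subunits, were lower too. TIM18 had a change of -0.50 in ethanol and -1.05 ± 0.14 in galactose (adjusted p = 1.4e-05), with galactose values of -1.08, -0.88, -0.55 and -1.70. TIM54 had -0.56 in ethanol and -0.29 in galactose, where the call was lost without Sgal+aa+ino (-0.22) and after centring. OXA1, which inserts proteins from the matrix side, was lower by smaller amounts (-0.34 and -0.30), and these calls ended when single cultures were left out (SEtOH or SEtOH+ino in ethanol, Sgal, Sgal+aa or Sgal+ino in galactose, nearest to 0 at -0.24 in both) and after centring.

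In the matrix motor group, in which MDJ1 was counted, MDJ1 and, in ethanol, SSC1 rose, and PAM16 and PAM18 fell. Late in galactose MDJ1 was the only 1 of the 7 called higher, and 2 were lower. MDJ1, a J-protein partner of Ssc1 that serves protein folding in the matrix, had 3.00, 2.90, 2.98 and 3.14 late in ethanol and 3.49, 3.12, 3.05 and 3.68 in galactose, a mean ratio of 8.02-fold and 10.1-fold. No dextrose culture exceeded 0.16. The changes against t = 0 were 3.00 ± 0.11 (adjusted p = 1.2e-10) and 3.33 ± 0.11 (adjusted p = 3.5e-11). The course began early, with 1.15 ± 0.26 at 15 min of ethanol (SD, n = 4), 2.30 ± 0.14 at 30 min, 3.37 ± 0.16 at 60 min, 3.34 ± 0.14 at 120 min and 2.67 ± 0.12 at 240 min.

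SSC1, the motor's Hsp70, rose late in ethanol but not in galactose. It had 1.04, 1.00, 0.88 and 1.04 in ethanol and 0.32, -0.37, 0.24 and -0.20 in galactose, with no overlap, and the change against t = 0 was 0.99 ± 0.13 in ethanol (adjusted p = 9.7e-06) and -0.00 in galactose. It peaked at 60 min in 4 of 4 ethanol cultures (mean 1.86 ± 0.16, SD, n = 4) and had come down to 0.54 ± 0.09 by 240 min. In galactose SSC1 was highest at 60 min in 3 of 4 cultures, at 0.96 in Sgal, 0.78 in Sgal+aa and 0.18 in Sgal+ino. In Sgal+aa+ino its highest value was 0.67, at 30 min. MGE1, the nucleotide exchange factor of Ssc1, was near 0 late in both (-0.48 to -0.03 in ethanol, -0.29 to 0.06 in galactose). Its ethanol call at -0.27 ended without SEtOH or SEtOH+ino (nearest to 0 at -0.20) and after centring. SSC1 lay above MGE1 in 4 of 4 late ethanol cultures and in 2 of 4 late galactose cultures.

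PAM18, the J-protein that stimulates Ssc1 at the channel, and PAM16, its partner, were among the lowest members. PAM18 had -1.36, -1.36, -1.38 and -1.62 late in ethanol and -1.66, -1.32, -1.67 and -1.13 in galactose, against -0.19, -0.30, 0.13 and -0.33 in dextrose with amino acids short. The changes against t = 0 were -1.43 ± 0.11 (adjusted p = 1.1e-07) and -1.44 ± 0.11 (adjusted p = 8e-08). PAM16 had -0.94, -1.19, -1.03 and -1.39 in ethanol and -1.49, -0.79, -1.50 and -1.29 in galactose, against -0.49, -0.60, -0.84 and -0.26 in dextrose with amino acids short, so the galactose and dextrose ranges overlapped. The changes were -1.14 ± 0.13 (adjusted p = 3e-06) and -1.27 ± 0.13 (adjusted p = 1.1e-06). TIM44, the scaffold that holds Ssc1 at the channel, and PAM17 were not called against t = 0 in the late window. PAM17 late in Sgal+aa+ino (-3.13) rested on a 120 min value at the limit of the table.

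**Figure D4:**
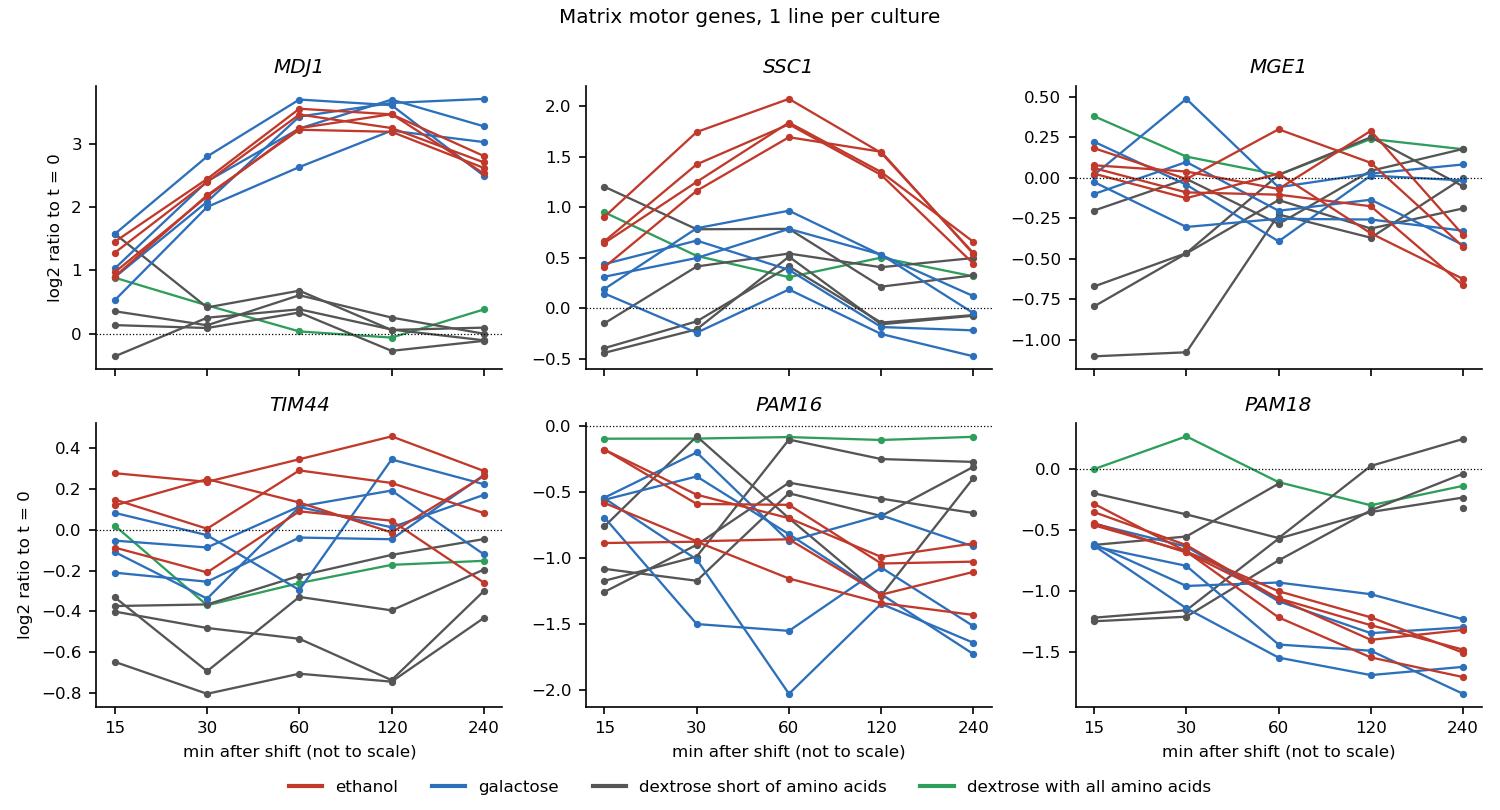
Log2 ratio to t = 0 of 6 of the 7 matrix motor members, all but PAM17 (vertical axis, scaled per panel), against minutes after the shift, 1 line per culture, in panels by gene with colours by class of medium. MDJ1 and SSC1 rose in ethanol, MDJ1 alone stayed high in galactose, and PAM16 and PAM18 sank in both.

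The 2 subunits of the processing peptidase, MAS1 and MAS2, were not called in any comparison (after centring both were higher late in galactose). Their galactose means came from the culture Sgal+aa+ino, with 1.91 and 1.93 for MAS1 and 1.11 and 1.15 for MAS2 at 120 and 240 min, while the other late galactose values of MAS1 were 0.06, 0.37 and -0.15.

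The comparison between carbon sources at late times asked which members differed from dextrose cultures handled the same way. Ethanol and galactose were set against SD, SD+ino and SD+aa, in a fit of 11 cultures with terms for amino acids and inositol. Both comparisons use these same 3 dextrose cultures. Against dextrose, 5 members were higher in ethanol and 12 lower, with 26.4% and 34.8% of all genes. By quantile normalization 5 and 6 were, 16.7% and 20% of members beside 21.5% and 21.2% of all genes. In galactose 2 were higher and 14 lower, with 27.6% and 36.3% of all genes. After centring 5 and 11 were, with 31.1% and 32.3% of all genes. Quantile normalization gave 5 and 9, with 22.7% of all genes in each direction. MDJ1 was higher by 2.95 ± 0.19 in ethanol (adjusted p = 2.8e-06) and 3.28 ± 0.19 in galactose (adjusted p = 1.1e-06). MIA40 was higher by 1.41 ± 0.16 (adjusted p = 8.9e-05) and 1.07 ± 0.16 (adjusted p = 0.00031). Of the lower members PAM18 had -1.21 ± 0.17 in ethanol and -1.22 in galactose, and TIM23 had -0.90 and -0.96. The PAM18 calls were lost by quantile normalization, which among the called members also turned the sign of PAM16 and TIM12 in both comparisons and of TOM70 in galactose. Over all 30 members it turned 7 signs in each comparison, and the member median of -0.34 in both became -0.06 for ethanol and 0.04 for galactose. The ethanol call of PAM16 (-0.73) was lost without SD+aa, at -0.49.

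**Figure D5:**
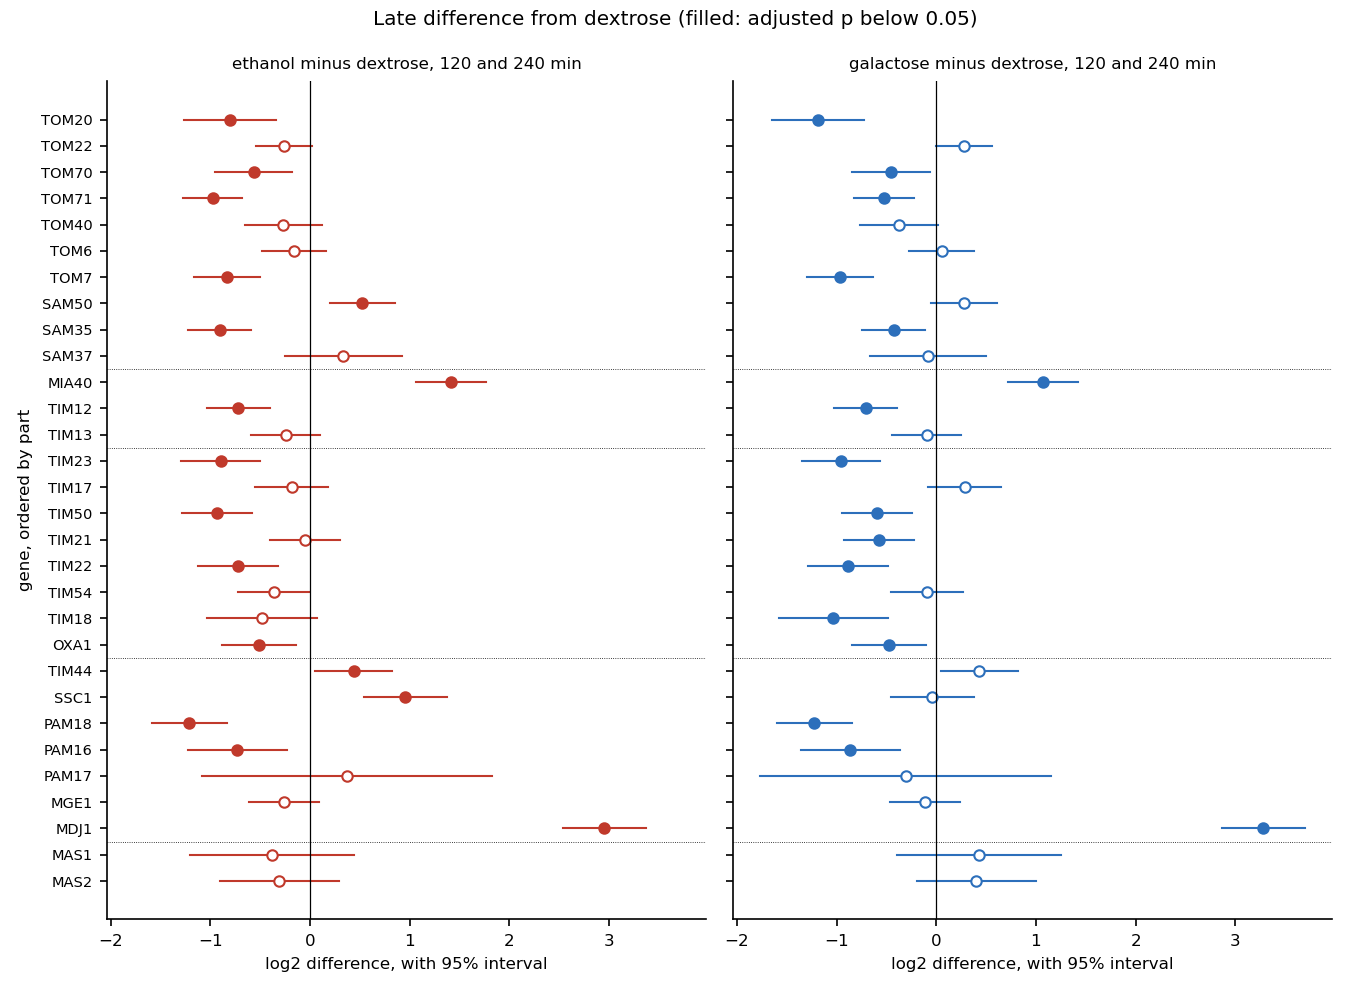
Late differences on the log2 scale (horizontal axis, with 95% intervals) for each member, ethanol minus dextrose and galactose minus dextrose, filled where the adjusted p was below 0.05. MDJ1 and MIA40 lie to the right in both and PAM18 to the left. Of the filled points those of PAM16 and TIM12 in both, and of TOM70 in galactose, changed sign under quantile normalization, and the member median of galactose minus dextrose went above 0 (0.04).

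Ethanol and galactose differed from each other in a share of members near that of all genes. Ethanol was higher than galactose late for 2 members and lower for 3, shares of 6.67% and 10%. Over all genes 7.63% were higher and 7.11% lower. SSC1 was higher in ethanol by 0.99 ± 0.17 (adjusted p = 0.008), the only one of the 5 calls that stood whichever culture was left out. TOM22 had a difference of -0.54 ± 0.11 (adjusted p = 0.017), with the 4 ethanol cultures all below 0 and the 4 galactose cultures all above it. TIM21 (0.52), SAM35 (-0.48) and TOM71 (-0.45) had the other calls. Without any 1 of the 4 ethanol cultures or without Sgal, 1 call was made, without SD, SD+ino or Sgal+aa+ino 2, and without Sgal+aa 9. Shares of all genes are not given for these counts. By quantile normalization no member was called, where 1.07% of all genes were higher and 0.844% lower, and SSC1 had a difference of 0.67.

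The import genes also changed within minutes in the dextrose media short of amino acids. Values against t = 0 include the filtering, washing and resuspension, and in SD the loss of inositol. Only the later comparison with SD+aa set these media against dextrose cells handled the same way. At 15 and 30 min (early below), 14 of 30 members were lower than at t = 0 in the 4 dextrose cultures short of amino acids and 5 were higher, where 33.8% and 38.9% of all genes were lower and higher. By quantile normalization 14 were lower and 2 higher, with 33.3% and 29.9% of all genes. The member median was -0.24, with 0.05 over all genes. PAM16 (-0.93 ± 0.14, adjusted p = 6.1e-05), PAM18 (-0.82 ± 0.13, adjusted p = 7.9e-05), TIM12 (-0.76 ± 0.10, adjusted p = 1.3e-05), TOM20 (-0.73 ± 0.14, adjusted p = 0.00037) and TOM70 (-0.67 ± 0.10, adjusted p = 5e-05) had the largest decreases. MGE1 (-0.60 ± 0.12), TOM6 (-0.56 ± 0.13) and TIM44 (-0.51 ± 0.09) fell as well. TIM12 in SD+aa:ARNCQGKPSDEFTY+ino rested on 15 min alone, since it had no value at 30 min.

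The decrease was not equal over the 4 media. MGE1 had -1.09, -0.63, -0.10 and -0.57 in SD, SD+ino, SD+aa:LIVWHM+ino and SD+aa:ARNCQGKPSDEFTY+ino, and PAM18 had -1.23, -1.19, -0.29 and -0.59. TOM20 had -1.23, -0.69, -0.08 and -0.94. SD+aa:LIVWHM+ino lay nearest to 0 for all 3, with 1 culture behind that statement. Not every lower member did so. TIM22 at 15 min was lowest in that culture, with -1.06. It had -0.65, -0.70 and -0.47 at 15 min in SD, SD+ino and SD+aa:ARNCQGKPSDEFTY+ino. In SD+aa:LIVWHM+ino MIA40 reached 1.19 and MDJ1 1.00, against 0.33 and 0.24 in SD. The higher call of MIA40 (0.46) ended without SD+aa:LIVWHM+ino or SD+ino, at as low as 0.22. SAM35 (0.49, adjusted p = 0.0013), TOM71 (0.37, adjusted p = 0.0016) and TIM21 (0.36, adjusted p = 0.003) were higher, and PAM17 (0.28) lost its call without either of the media with some amino acids (at as low as 0.18).

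At the late times most of these members were nearer to 0 than at the early times. Late minus early, 10 members were higher and 2 lower in these 4 cultures, where 26% and 30.5% of all genes were higher and lower. Quantile normalization gave 8 and 2, with 23.4% and 21.4% of all genes. The higher share of members was then 26.7%. It turned 9 of 30 signs, 1 of them called, and the member median went from 0.12 to 0.055. TIM23 went up by 0.80 ± 0.16 (adjusted p = 0.0009), PAM18 by 0.65 (adjusted p = 0.0011) and MGE1 by 0.54 (adjusted p = 0.0012). MIA40 fell by 0.88 ± 0.20 (adjusted p = 0.0022). Without SD 7 calls were made, those of TOM20, TOM70, TOM6, SAM50 and TIM22 being lost. TOM70 turned sign by quantile normalization (-0.03, against 0.34).

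Over the same times in ethanol and galactose the counts depended on the scaling. Late minus early, 3 members were higher and 13 lower in ethanol, where 27.6% and 35.7% of all genes were higher and lower. Quantile normalization gave 4 and 5, with 16.3% and 22.4% of all genes. In galactose 4 were higher and 10 lower, where 28.5% and 37.8% of all genes were. The lower share of members, 33.3%, was thus below that of all genes. There quantile normalization gave 5 and 4, with 13% and 18.1% of all genes. The member medians were -0.29 in ethanol and -0.21 in galactose, but -0.05 and 0.16 by quantile normalization. TIM50 (-0.91), PAM18 (-0.90) and TOM71 (-0.88) had the largest decreases in ethanol, and TOM20 (-0.86), TIM23 (-0.76), TIM18 (-0.71) and PAM18 (-0.71) in galactose. The sign of PAM18 turned by quantile normalization in both, as did that of the increases of MDJ1 (1.28 in ethanol, 1.67 in galactose). The early times themselves had 3 members higher and 6 lower in ethanol, where 19.1% and 21.7% of all genes were higher and lower. Quantile normalization gave 3 and 13 there, with 29.6% and 35.8% of all genes. Early in galactose 2 were higher and 13 lower, where 24.1% and 26.4% of all genes were. Early changes were smaller than late ones for PAM18 (-0.53 in ethanol, -0.73 in galactose) and TIM12 (-0.45 and -0.41), although by quantile normalization late minus early was above 0 for both in both media. The early galactose count went down to 9 without Sgal or Sgal+aa+ino and to 7 without Sgal+aa, with no share of all genes given.

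Early dextrose cultures short of amino acids were also set against ethanol and galactose at the same times. Against ethanol, 4 members were higher and 8 lower, with 29% and 24.8% of all genes. Centring gave 1 and 11, with 24.2% and 28.5% of all genes, and quantile normalization 6 and 7, with 23.3% and 24.1%. Against galactose 2 were higher and 5 lower, with 29% and 25.8% of all genes. Centring gave 1 and 7, with 25% and 30.2% of all genes, and quantile normalization 6 and 4, with 24.5% and 26.8%. MGE1 was lower by 0.62 than in ethanol and by 0.64 than in galactose, and TIM23 by 0.59 and 0.62. TIM21 was higher, with 0.42, 0.18, 0.15 and 0.67 in the dextrose cultures, -0.07, -0.11, -0.17 and -0.20 in ethanol and -0.40, -0.25, -0.32 and -0.08 in galactose, so that dextrose and the other classes did not overlap. The count against ethanol was 7 without SEtOH, and the count against galactose 11 without SD+aa:LIVWHM+ino.

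Within dextrose, cultures with no amino acids were set against the culture with all of them at the early times, SD and SD+ino against SD+aa. None of the 30 members was higher and 16 were lower, a share of 53.3%, where 22.2% of all genes were lower and 26.9% higher. The member median was -0.48, with 0.07 over all genes. By group, 6 of 8 inner membrane members, 5 of 10 outer membrane members, 4 of 7 motor members and 1 of 3 intermembrane space members were lower.

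PAM18 had -1.23 and -1.19 in SD and SD+ino, against 0.13 in SD+aa, a difference of -1.37 ± 0.18 (adjusted p = 0.00012). TIM23 had -1.05 and -0.61, against 0.29 (-1.26 ± 0.22, adjusted p = 0.00092). MGE1 had -1.09 and -0.63, against 0.26 (-1.21 ± 0.20, adjusted p = 0.00059). SSC1 had -0.33 and -0.26, against 0.73 (-1.04 ± 0.24, adjusted p = 0.0045), and TOM20 -1.23 and -0.69, against 0.10 (-1.12). The comparison rests on 1 culture of SD+aa, whose own spread was taken from the other classes. The count was 10 without SD, and the calls of PAM16, TOM22, TIM17, TIM54, TOM71, TIM12 and TIM22 were lost there.

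At late times no member passed the test for amino acids or for inositol. For no amino acids minus all of them, over the 3 carbon sources, no member was called and 0.394% of all genes were called higher and 0% lower. At an unadjusted p below 0.05 there were 0 members and 12.5% of all genes. For no inositol minus inositol no member was called, with 0% of all genes higher and 0% lower, and 0 members and 2.74% of all genes had an unadjusted p below 0.05. The medians of the members were -0.08 for amino acids and 0.00 for inositol.

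The 21 other genes known to act beside the import machinery all had a probe, and the chaperones among them moved most. HSP78, the matrix disaggregase, had 5.30, 5.02, 5.41 and 5.09 late in ethanol and 4.90, 4.30, 4.24 and 4.41 in galactose, a mean of 36.9-fold and 22.1-fold. HSP60 and HSP10, which form the folding chamber of the matrix, were higher by 1.55 and 1.83 in ethanol and by 1.58 and 2.54 in galactose. MDJ2, a relative of MDJ1, was lower in ethanol (-0.72), and IMP1, a subunit of the inner membrane peptidase, in galactose (-0.73). Of the 20 tested, 7 were higher and 4 lower in ethanol, and 9 and 4 in galactose, where 33.8% and 42.9% of all genes were higher and lower in ethanol and 34.7% and 44.7% in galactose. The higher counts were shares of 35% and 45%, the first near that of all genes. Against late dextrose the counts were 7 and 4 in ethanol and 7 and 3 in galactose, where 26.4% and 34.8%, and 27.6% and 36.3%, of all genes were higher and lower. Early in dextrose short of amino acids 6 of 19 were higher and 2 lower, where 38.9% and 33.8% of all genes were. With no amino acids in early dextrose HSP10 was lower by 1.78 ± 0.23 (adjusted p = 0.00014) and HSP60 by 1.45 ± 0.27 (adjusted p = 0.0015), while HSP78 was higher by 1.18 ± 0.32 (adjusted p = 0.012).

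Members of one group did not share one course. Over up to 65 combinations of culture and time, which share cultures and the t = 0 cells, Pearson's r had a median of 0.11 over all 435 pairs of members. It was 0.26 over 28 pairs within the inner membrane, 0.13 over 45 within the outer membrane and 0.002 over 21 within the motor, where it ranged between -0.73 and 0.75. Over 337 pairs between groups it was 0.094. These values kept the PAM17 value at the limit (-6.64) and the SAM37 value from disagreeing repeats (2.21). A single far value can move Pearson's r, and r without them is not given. The highest was SAM35 with TOM71 (0.87), followed by pairs across groups and within them, such as PAM18 with TIM12 (0.80) and TOM20 with TOM70 (0.80). The lowest was MDJ1 with TOM7 (-0.76).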

How the data were processed

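The study hybridised poly A RNA of shifted cells (Cy5) with that of t = 0 cells (Cy3) to yeast cDNA arrays, with no dye swap, per the labels' protocols. The authors deposited 1 table of 73 arrays whose values were read as log10 ratios: they end at 2 in either direction, which is 100-fold. The scanner, the normalization, the base and the direction of the deposited log10 ratios are not given in the sources used here. A dye effect of a gene would add to its value against t = 0 and cancel between media.

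The values were multiplied by 3.32 to give log2, with no further normalization. Of 6256 probes 5568 had 1 gene symbol, and probes of a gene were averaged, giving 5538 genes. Repeat arrays (8) were averaged with their partners, and the titles were followed where they and the design text disagreed on which SEtOH+aa times were repeated. The number of probes with a value ranged over arrays between 4954 and 6254, with a median of 6220, and 2.56% of values were missing. Array medians lay between -0.17 and 0.06. The number of cultures limits the precision.

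For each culture early was the mean of 15 and 30 min and late that of 120 and 240 min, using the time that had a value where the other had none. Class means over 13 cultures, or an additive model of carbon source, amino acid supply and inositol over 11, were fitted in limma 3.58.1 (R 4.3.3; lmFit, eBayes), with Benjamini-Hochberg adjustment over all genes tested and a threshold of 0.05. No amino acids minus all in early dextrose came from class means with an inositol term. The fits were tested on simulated data. All members are named, and of the import-associated genes the few with the largest called changes. The members and lists were chosen with earlier results of these data known. The late-minus-early comparisons in ethanol and galactose, and dextrose against ethanol or galactose at early times, and the look at GAL1, GAL7 and GAL10, were added after seeing the data. Alternatives were centring each array, quantile normalization, the first of each repeat, a robust fit, genes valued on every array, single times, values at the limit as missing (added after seeing the data) and each culture left out.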

Additional observations from a re-analysis of the deposited data

Results flagged for a closer look

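In 180 groups of 4 cultures, 11 had a member for which 1 culture lay far from the other 3, and chance alone gives about 1 in 20. Late in galactose, Sgal+aa+ino had 1.13 for MAS2 (others -0.01 to 0.11) and -3.13 for PAM17 (others 0.14 to 0.45), the second from a single value at the limit of the table. Late in ethanol, SEtOH+aa had 1.01 for SAM37 (others -0.29 to -0.12), where the repeat arrays at 120 min disagreed. SEtOH+aa+ino had -1.62 for PAM18 (others -1.38 to -1.36) and -0.71 for TOM70 (others -0.91 to -0.88) late, and -0.43 for TOM6 early (others -0.13 to -0.08).

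Early in dextrose short of amino acids, SD+aa:LIVWHM+ino had 0.15 for OXA1 (others -0.55 to -0.47) and -0.42 for PAM16 (others -1.13 to -1.08), and SD+aa:ARNCQGKPSDEFTY+ino had -0.60 for SAM37 (others -0.25 to -0.18). Late in the same class, SD+ino had 0.47 for TIM23 (others 0.03 to 0.08) and SD+aa:ARNCQGKPSDEFTY+ino had 0.41 for TOM6 (others -0.25 to -0.15).

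A search for opposite signs covered 3 pairs of classes: ethanol and galactose late, and dextrose short of amino acids with ethanol or galactose early. In 3 cases there, all cultures of one class lay on one side of 0 and all of the other class on the other side. Late dextrose short of amino acids against ethanol or galactose was not searched, though TIM23 and MIA40, for instance, had opposite signs there. The share over all genes was not counted. TOM22 late was below 0 in 4 of 4 ethanol cultures and above it in 4 of 4 galactose cultures, with a difference of -0.54 ± 0.11 (SE; limma, adjusted p = 0.017). TIM21 early was above 0 in 4 of 4 dextrose cultures short of amino acids, and below it in 4 of 4 ethanol cultures (difference 0.49 ± 0.13, limma, adjusted p = 0.0053) and in 4 of 4 galactose cultures (0.62 ± 0.13, limma, adjusted p = 0.0011).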

How the results depend on the processing

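No paired analysis was possible because each medium was 1 culture and all carry the same replicate number, 1, in the labels. Changes over time were taken within cultures, and the fits of carbon source held terms for amino acids and inositol. Quantile normalization, which gives all arrays 1 distribution although their spreads differ, changed most. The members called became 16 early in ethanol, 11 for ethanol minus dextrose, 0 for ethanol minus galactose, and 9 each for the changes over time in ethanol and galactose. Of all genes, 29.6% were then higher and 35.8% lower early in ethanol, and 21.5% and 21.2% for ethanol minus dextrose. For ethanol minus galactose the shares were 1.07% and 0.844%. They were 16.3% and 22.4% for the change over time in ethanol, and 13% and 18.1% in galactose. Over the 16 comparisons it turned the sign of 82 of 480 member values, 16 of them called, and centring turned 25, none of them called. Against dextrose the called ones were PAM16 (0.0768) and TIM12 (0.17) in ethanol and PAM16 (0.0339), TIM12 (0.19) and TOM70 (0.0725) in galactose. Over time they were PAM16 (0.36), TIM12 (0.12), MDJ1 (-0.37), PAM18 (0.0697) and TIM22 (0.52) in ethanol, PAM16 (0.29), TOM70 (0.018), TIM12 (0.0034), MDJ1 (-0.0039) and PAM18 (0.19) in galactose, and TOM70 (-0.0294) in dextrose short of amino acids. The cause was not tested.

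Among genes with a value on every array, 17 members were tested. Their calls were 11, 5 and 8 early against t = 0 in dextrose short of amino acids, ethanol and galactose, 14 and 10 late in ethanol and galactose, and 6, 9 and 8 for the changes over time in the same order as the early counts. They were 11 for ethanol minus dextrose and 9 for no minus all amino acids early, with fewer members tested. With 15 min alone 8 were called early in galactose. With 30 min alone 7 were called for no minus all amino acids and 6 for dextrose minus ethanol. With 240 min alone 2 were called for ethanol minus galactose. Leaving out 1 culture at a time gave 7 to 12 calls for the change over time in dextrose short of amino acids, 7 to 16 early in galactose, 1 to 9 for ethanol minus galactose, 10 to 17 for no minus all amino acids early, 7 to 15 for early dextrose minus ethanol and 5 to 11 for dextrose minus galactose. Shares of all genes are not given for the counts of this paragraph or for earlier counts with 1 culture left out. A change in such a count cannot be told apart from a change in how many of all genes passed.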
